A study of Mus musculus with 12 samples.

Results

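The liver transcriptome of mice that had breathed secondhand smoke (SHS) for 4 months and then clean air for 1 month was compared with that of controls kept in clean air throughout. The members were chosen by their labels alone, as the 4 arrays of the SHS4m+1m recovery group (replicates 70 to 73) and the 4 control arrays (replicates 1 to 4), which are 8 of the 12 arrays of the series. The remaining 4 arrays are of mice killed at the end of exposure (SHS4m, replicates 66 to 69) and are given beside them for reference. All mice were C57BL/6 males on a standard diet. Exposure was of the whole body to smoke that a machine drew from burning reference cigarettes, and controls were sham-treated in filtered air. The study describes control subgroups with and without the recovery month, and the labels do not say from which of these the 4 control arrays came, nor at what hour any liver was taken. Each array held total liver RNA of 1 mouse on an Affymetrix mouse genome array, on which a probe set is several short probes read together for 1 transcript. Values are log2 signals, after signals under 32 had been raised to 32, which is 5 on the log2 scale and is called the floor here.

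The liver meets inhaled toxicants through enzymes of drug metabolism, and it also stores glycogen, makes fatty acids, cholesterol and bile acids and breaks down amino acids. Much of this metabolism runs on a daily rhythm. In the circadian clock, the proteins of Arntl (also called Bmal1) and Clock bind DNA sites called E-boxes and switch on the Per genes and many output genes. The Per and Cry proteins in turn hold Arntl and Clock back, and the output factors Dbp, Tef and Hlf act on a different site, the D-box.

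The median signal was 72.4 to 78.2 on control arrays and 67.2 to 73.9 on recovery arrays. The actin signal at the 3' end over that at the 5' end, which is higher in degraded RNA, was 3.24 to 3.90 on the control arrays, 8.82 on recovery replicate 72 and 4.10 to 4.36 on the other recovery arrays, so that all 4 recovery arrays lay above every control. The same ratio for Gapdh was 2.37 to 2.95 on the control arrays, 4.52 on recovery replicate 72 and 2.29 to 2.77 on the other recovery arrays, where the groups overlap. The actin ratio moves with the group, and its part in the differences was not tested. Each call was also refitted without replicate 72, and without each of the other 11 arrays. Markers of hepatocytes were bright on all arrays: the signals of 19 such genes summed to 405109 to 462523 on control arrays and 333248 to 508272 on recovery arrays. Of the markers of macrophages, neutrophils, T and NK cells, B cells, stellate cells, sinusoidal endothelium, bile duct, erythroid cells and adipocytes, none passed limma's adjusted p, and 5 of these 68 genes had an unadjusted p under 0.05, as had 16.1% of all genes. The 2 brightest markers of each of these lists had log2 differences from -0.58 (Adig and Fabp4, of adipocytes) to 0.38 (Cd8a, of T cells). Summed over each list, the macrophage markers gave 17393 to 21283 in controls and 14845 to 19955 in recovery mice, and the neutrophil markers 745 to 1082 and 725 to 821. The neutrophil markers Camp and Cxcr2 were at the floor on all 8 arrays. Of 7 acinar markers of the pancreas 1, the elastase Cela1, was lower (log2 difference -0.66, adjusted p = 0.0171, and 0.0507 without control replicate 4), while the median difference over the list was -0.01 and Cpa1 was at the floor on all 8 arrays. The list summed to 5414 to 6983 in controls and 3755 to 4504 in recovery mice, a sum that is mostly the signal of Cela1. In whole liver, fewer cells of a type and less RNA per cell cannot be told apart.

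Of 45037 probe sets, 931 (2.07%) differed between recovery and control mice at limma's Benjamini-Hochberg adjusted p under 0.05 (these are termed called), 395 (0.877%) higher and 536 (1.19%) lower after recovery. At the study's own cutoffs, an unadjusted p under 0.05 and a 2-fold change, the count was 619 (1.37%), with 178 higher and 441 lower. The called falls were larger than the called rises, with a median log2 difference of -0.74 against 0.52 over probe sets that name 1 gene. Calls that also passed in each of the 12 fits without 1 array numbered 302, of which 146 were higher and 156 lower. The 4 control and the 4 recovery arrays did not overlap in any of the 931, against 3426 (7.61%) of all probe sets. With every array centred at its median the count of calls was 475, and the share that was higher moved from 42.4% to 57.3%, so the balance of rises and falls depends on the scaling. Of the 93 probe sets named here that were called, 27 no longer passed with centring and 66 with only the 8 arrays fitted. None turned its direction, which the fit of the 8 arrays could not bring about because it leaves the differences unchanged. Calls ended by centring are marked below, and those ended by fitting only the 8 arrays are not. The latter include Clock (adjusted p = 0.0652), Acaca (0.0672), Cyp2b10 (0.0672) and Ctcf (0.0776), each of which passed in every fit without 1 array. At the study's cutoffs this share moved from 28.8% to 45.1% with centring and to 41.1% with quantile normalization. Read by the brightest probe set of each gene, 458 of 18193 genes (2.52%) were called, 250 higher and 208 lower, and this is the background against which the gene lists below are given. Of the same 18193 genes, 8229 had a difference above 0 and 8961 below 0. Counts of such signs in the lists below were not tested against this.

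**Figure D1:**
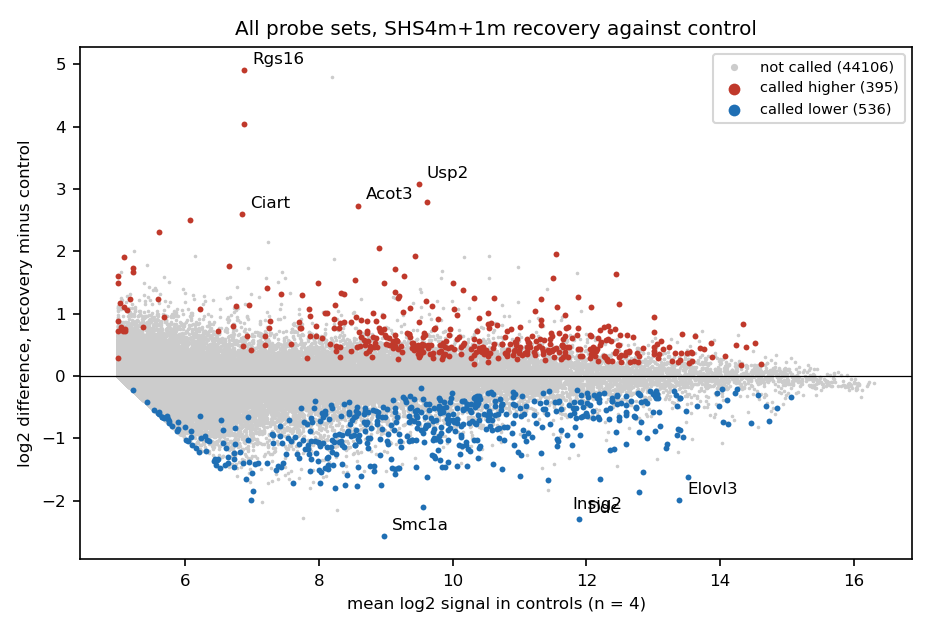
Log2 difference between recovery and control mice (y axis) against the mean log2 signal in controls (x axis) for all 45037 probe sets, with the 395 called higher in red, the 536 called lower in blue and the others in grey. The largest rises are probe sets of Rgs16, Usp2, Acot3 and Ciart, the largest falls those of Smc1a and Ddc, and the slanted lower edge at left is the floor, below which no fall can be measured.

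The largest rises were in Rgs16 and Usp2, both on the list of genes driven by the circadian clock. Of 22 clock output genes, 10 were called (45.5%, against 2.52% of all genes), 8 higher and 2 lower, with a median log2 difference of 1.11 against 0.00 over all genes. Of 16 core clock genes, 3 were called, Ciart and Per2 higher and Clock lower. Without recovery replicate 72, where fewer probe sets pass in all (510), the output list had 3 genes called higher and 2 lower, with the same median of 1.11, and the core list had 1 called, Clock. None of the 8 probe sets in the plot of clock genes was called between recovery and SHS4m mice (adjusted p from 0.677 to 1), which does not show equal levels. Some of the listed genes had been chosen by the study on the same arrays, so the lists are not independent evidence of a direction.

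The deubiquitinase Usp2 (1417168_a_at), a strongly rhythmic liver transcript, was 9.93, 10.72, 8.87 and 8.44 in control replicates 1 to 4 and 12.79, 12.63, 12.55 and 12.28 in recovery replicates 70 to 73 (log2 signal). Every recovery array lay above every control array, and the controls spread far more than the recovery mice. The difference was 3.07 (standard error 0.44), an 8.42-fold rise (adjusted p = 0.0114), and it passed in every fit without 1 array. The second probe set of Usp2 rose by 2.79 (adjusted p = 0.0089).

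Rgs16 (1426037_a_at), which shortens signalling by G protein-coupled receptors, was at the floor in control replicates 3 and 4, at 9.51 and 7.98 in control replicates 1 and 2, and at 11.51, 11.70, 11.62 and 12.27 in recovery replicates 70 to 73. Its log2 difference of 4.90 (standard error 0.92, adjusted p = 0.0302) was the largest of all called probe sets, and with 2 controls at the floor its size is limited by the floor. Another of its probe sets also rose (log2 2.51, adjusted p = 0.0255), and the brightest differed by 4.79 (adjusted p = 0.0588). The call was lost without control replicate 3 or 4 or any recovery array (up to 0.0741).

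Upp2, a uridine phosphorylase of the liver, was 11.94, 12.26, 11.09 and 10.91 in the controls and 13.59, 13.71, 13.20 and 13.52 after recovery, with no overlap (log2 difference 1.96, standard error 0.28, adjusted p = 0.0119). The brightest of its 3 probe sets rose too (log2 1.63), and the dimmest differed by 0.57 from controls without passing and by -1.48 from SHS4m mice (adjusted p = 0.00773 for the latter). Wee1, a kinase that holds back entry into mitosis, was 9.66, 9.60, 8.30 and 8.05 in the controls and 10.66, 11.08, 11.14 and 10.94 after recovery, again without overlap (log2 difference 2.05, standard error 0.36, adjusted p = 0.024, and up to 0.0649 without control replicate 3 or recovery replicates 71, 72 or 73). In Usp2, Rgs16, Upp2 and Wee1 alike, control replicates 1 and 2 lay nearer the recovery arrays than control replicates 3 and 4 did.

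Among the core genes, Ciart, a repressor of the clock, was 7.64, 8.02, 5.90 and 5.83 in the controls and 9.46, 9.71, 9.70 and 8.91 after recovery (log2 difference 2.60, standard error 0.56, adjusted p = 0.048). Per2 was 7.90, 8.15, 8.0 and 6.97 in the controls and 9.62, 8.71, 8.78 and 9.10 after recovery (log2 difference 1.30, standard error 0.27, adjusted p = 0.0449). The groups did not overlap in either gene, yet both calls were at the edge: that of Ciart passed in 1 of the 12 fits without 1 array and that of Per2 in none (adjusted p up to 0.121 and 0.0983).

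Clock itself (1418659_at) moved the other way. It was 9.64, 9.49, 9.82 and 10.15 in the controls and 8.81, 8.18, 8.61 and 8.78 after recovery, with all recovery arrays below all controls. The fall of 1.18 on the log2 scale (standard error 0.18, adjusted p = 0.0145) held in every fit without 1 array, and 3 of the 4 probe sets of Clock fell (the others by 1.46 and 1.47), while the dim remaining one differed by 0.05. Its partner Arntl, named after its values were seen, was 7.15, 6.65, 8.50 and 8.76 in the controls and 5.82, 6.12, 5.0 and 5.0 after recovery. Its log2 difference of -2.28 (standard error 0.58) did not pass (adjusted p = 0.0863), and 2 recovery arrays were at the floor. By their brightest probe sets, Per3 (log2 2.15, adjusted p = 0.0632), Per1 (log2 1.87, adjusted p = 0.0865) and the output factor Dbp (log2 1.66, adjusted p = 0.166), also named after their values were seen, did not pass either. In these 3 probe sets the SD over the 4 controls was 1.14 to 1.25, against 0.21 to 0.34 over the recovery arrays. A dimmer probe set of Per3 was called higher at the edge (log2 0.42, adjusted p = 0.048), and passed in 1 of the fits without 1 array. Nr1d1 and Nr1d2, clock genes named in the same way, did not pass and did not share 1 direction. Nr1d1 differed by -1.08 (adjusted p = 0.675), with recovery arrays at 5.22, 8.52, 9.30 and 9.23. Nr1d2 differed by 0.56 (adjusted p = 0.242).

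**Figure D2:**
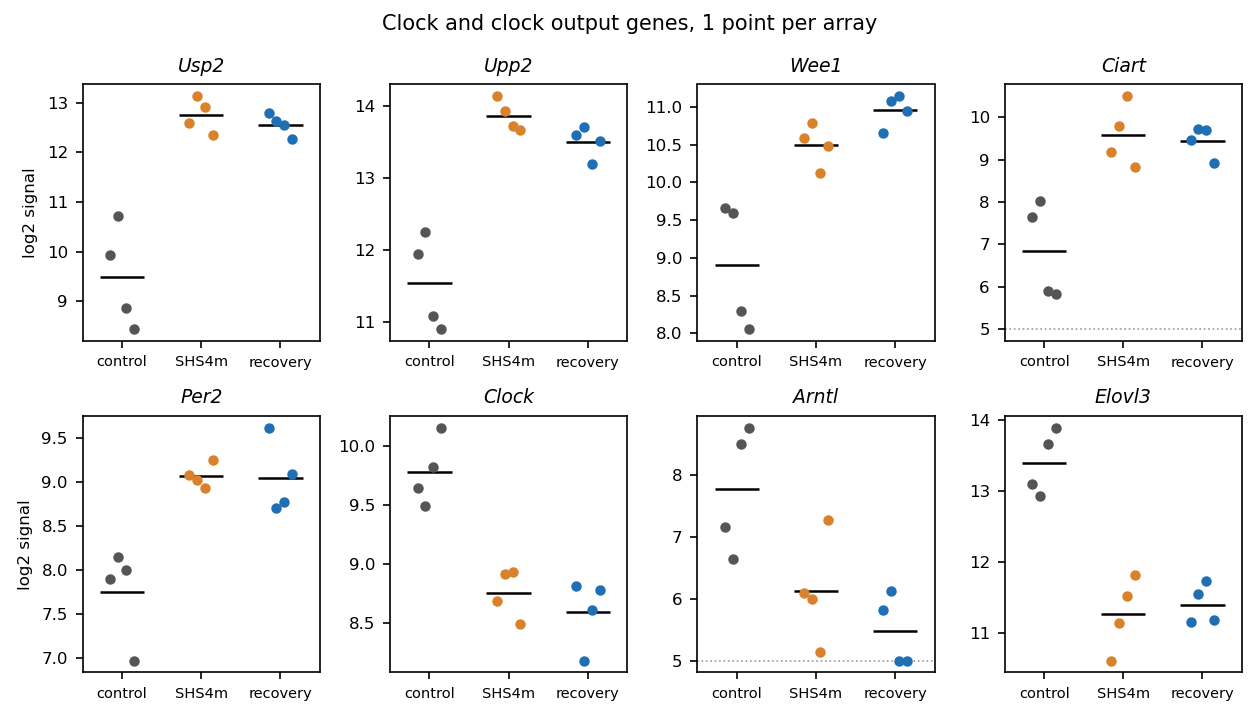
Log2 signal (y axis) of 8 clock and clock output genes on each array of control, SHS4m and recovery mice (x axis, 4 arrays per group), with bars at the group means and a dotted line at the floor of 5. Usp2, Upp2, Wee1, Ciart and Per2 lie higher and Clock and Elovl3 lower on every recovery array than on every control array, and the recovery arrays lie on the same side of the controls as the SHS4m mean in all of these.

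Other called output genes, named beyond the rule after their values were seen, were Tspan4, a tetraspanin (log2 1.01, standard error 0.08, adjusted p = 0.0028), Tef, a D-box factor (log2 1.23, adjusted p = 0.0145), Coq10b, which serves coenzyme Q in mitochondria (log2 1.38, adjusted p = 0.042), and Slc16a12, a creatine carrier (log2 0.83, adjusted p = 0.0241). Tspan4 and Tef passed in every fit without 1 array. By its brightest probe set, given above, Coq10b passed only in the fit without control replicate 2 (up to 0.112 in the others). The other probe set of Coq10b rose by 1.35 (adjusted p = 0.0149) and passed in every fit without 1 array. Slc16a12 was lost without control replicates 1, 3 or 4 or recovery replicates 72 or 73 (up to 0.0683).

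Promoters of the called clock genes were read from RefSeq sequences of 250 bases before to 50 bases after each annotated start (GRCm38.p6), which were found for 7 of the 10 genes called higher and for 2 of the 3 called lower. The E-box CACGTG was present in at least 1 promoter of 5 of those 7 (Ciart, Tef, Tspan4, Coq10b and Slc16a12) and in neither of the 2 called lower (Clock and Insig2). It occurs in 7.15% of all 32851 promoters of this length and in 8.09% of all genes. The D-box, searched as TTATGTAA or TTATGCAA on both strands, was present in Coq10b and Slc16a12, against 1.66% of all promoters and 1.98% of all genes. The genes read here came from lists of clock and clock-driven genes, and promoters of the uncalled members were not read. These shares therefore cannot tell whether a motif goes with a rise. The motifs do not overlap each other. Stretches that hold the matches are shown because these genes rose and carry the letters the clock factors are known to bind. They are written 5′ to 3′ on the strand of the gene, with the E-box or D-box in capitals. Usp2 and Upp2, also called higher, hold neither motif in these windows.
Ciart, chr3:95882259-95882358, minus strand: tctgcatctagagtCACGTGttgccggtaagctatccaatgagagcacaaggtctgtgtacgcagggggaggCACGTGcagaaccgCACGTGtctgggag
Tef, first start, chr15:81802503-81802602, plus strand: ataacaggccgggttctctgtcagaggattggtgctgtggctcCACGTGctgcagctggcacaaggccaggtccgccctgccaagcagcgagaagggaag
Tef, second start, chr15:81811244-81811343, plus strand: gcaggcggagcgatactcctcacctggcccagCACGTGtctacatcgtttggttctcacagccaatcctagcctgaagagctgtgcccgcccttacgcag
Coq10b, chr1:55052595-55052704, plus strand: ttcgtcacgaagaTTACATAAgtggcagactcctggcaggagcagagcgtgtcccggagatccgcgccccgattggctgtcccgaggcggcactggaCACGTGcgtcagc
Slc16a12, chr19:34747389-34747578, minus strand: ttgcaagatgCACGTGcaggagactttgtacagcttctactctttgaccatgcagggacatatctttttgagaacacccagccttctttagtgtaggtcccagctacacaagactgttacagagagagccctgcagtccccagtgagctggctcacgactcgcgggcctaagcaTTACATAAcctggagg
Tspan4, second start, chr7:141476280-141476379, plus strand: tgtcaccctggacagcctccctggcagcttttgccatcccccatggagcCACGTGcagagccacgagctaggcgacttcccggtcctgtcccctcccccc
Ciart, the gene with the largest rise of the 5, had E-boxes at 3 places (first base at -116, -58 and -44 from the start), and both annotated starts of Tef had 1. The second of the 2 starts of Tspan4 had an E-box at -51, and the first had none. In Coq10b the D-box began at -162 and the E-box at -78, and in Slc16a12 the E-box began at -240 and the D-box at -76. A match is a description of the letters only.

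In lipid metabolism, Acaca, Fads2, Dgat2, Acot3 and Acadl rose after recovery, and Elovl3, Insig2 and Abhd5 fell. Of 23 fatty acid synthesis genes 4 were called (17.4%), 3 higher and 1 lower, with a median log2 difference of 0.09. Without recovery replicate 72 the list had 2 higher and 1 lower.

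Acaca, acetyl-CoA carboxylase, which makes the first building block of fatty acids, was 9.96, 9.93, 10.36 and 10.13 in the controls and 10.74, 10.61, 10.84 and 10.66 after recovery. All recovery arrays lay above all controls, by 0.62 on average (standard error 0.09, adjusted p = 0.012), while the SHS4m mean of 10.02 was close to that of the controls. Fads2, a desaturase for polyunsaturated fatty acids, was 11.86, 12.06, 11.82 and 11.68 in the controls and 12.49, 12.50, 12.33 and 12.74 after recovery (log2 difference 0.66, standard error 0.11, adjusted p = 0.0189), against an SHS4m mean of 11.62. Both were also higher than in SHS4m mice (adjusted p = 0.00627 for Acaca and 0.00498 for Fads2 between recovery and SHS4m). Acaca passed in every fit without 1 array, and Fads2 was lost without control replicates 1, 3 or 4 or recovery replicate 71 (adjusted p up to 0.0564). The brightest probe set of each was called, and the other probe sets of Fads2 differed by 0.25 and 0.68 and the dim one of Acaca by 0.04, none of them called.

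Dgat2, which completes triglyceride synthesis, rose by a log2 of 0.38 (adjusted p = 0.0349), and Abhd5, which activates triglyceride breakdown, fell by 0.61 (adjusted p = 0.017) by its brightest probe set, while its other probe sets differed by -0.12 and 0.01 (adjusted p = 0.675 and 1). With each array centred on its median neither passed (adjusted p = 0.0873 for Dgat2 and 0.06 for Abhd5). These were the 2 called of 26 genes of triglyceride synthesis, lipins and lipid droplets, and Dgat2 passed only in the fits without control replicate 2 or SHS4m replicate 66, 67 or 69 (up to 0.0959 in the others). Lpin1 of the same list, named after its values were seen, had a log2 difference of 1.93 that did not pass (adjusted p = 0.126), with SDs of 0.89 and 1.03 in the 2 groups. Fasn, the fatty acid synthase, also named after its values were seen, differed by 0.89 from controls without passing (adjusted p = 0.207). It was higher than in SHS4m mice by a log2 of 1.58 (adjusted p = 0.0291).

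Elovl3, an elongase of very long-chain fatty acids with a daily rhythm, was 13.10, 12.92, 13.66 and 13.89 in the controls and 11.15, 11.54, 11.73 and 11.18 after recovery. The groups were well apart, by -1.99 (standard error 0.29, adjusted p = 0.0125), and the SHS4m mean was 11.27. Elovl3 was the gene called of the 18 male-biased liver genes, of which 16 had a difference below 0, and it was also on the clock output list.

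Acot3 (1422925_s_at), a peroxisomal thioesterase that frees fatty acids from coenzyme A, rose against both other groups. It was 9.04, 9.43, 7.0 and 8.87 in the controls and 11.43, 11.31, 11.12 and 11.40 after recovery, with an SHS4m mean of 8.89. It was 6.65-fold higher than in controls (standard error of the log2 difference 0.49, adjusted p = 0.026) and differed by a log2 of 2.42 from SHS4m mice (adjusted p = 0.0356). The call against controls was lost without control replicate 1 or 4 or any recovery array (adjusted p up to 0.0642). Of 30 genes of PPAR-alpha and fatty acid oxidation 2 were called (6.7%), Acot3 and Acadl, a dehydrogenase of fatty acid oxidation (log2 0.35, adjusted p = 0.0236, up to 0.0623 without control replicates 1, 3 or 4 or recovery replicate 71, and 0.0975 with centring), and 24 had a difference above 0.

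Insig2 encodes a protein that keeps the sterol sensor of the endoplasmic reticulum from activating cholesterol and fatty acid synthesis. Its probe set with the largest fall (1417982_at) was 12.87, 12.55, 12.55 and 13.17 in the controls and 10.73, 10.95, 11.34 and 10.69 after recovery. The SHS4m mean, 12.10, lay between them. The log2 difference was -1.86 from controls (standard error 0.18, adjusted p = 0.0037) and -1.18 from SHS4m mice (adjusted p = 0.0101). All 3 probe sets of Insig2 fell (by 1.54, 1.62 and 1.86), and the call held in every fit without 1 array. It was the gene called of 22 cholesterol synthesis genes, 19 of which had a difference below 0 (median log2 -0.24). Hmgcs1 of this list, named after its values were seen, differed by -0.81 without passing (adjusted p = 0.282). Insig2 was also on the clock output list and is counted there as well.

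Of 28 bile acid genes 3 were called (10.7%). Hsd3b7, an enzyme of bile acid synthesis, fell by 0.48 (log2, adjusted p = 0.0104, and 0.116 with each array centred on its median). The bile acid receptor Nr1h4 (log2 0.64, adjusted p = 0.0356) and the sterol exporter Abcg5 (log2 0.56, adjusted p = 0.0497) rose. In the fits without 1 array, Nr1h4 passed without SHS4m replicate 67 or 69 only and Abcg5 without control replicate 2 only (adjusted p up to 0.0918 and 0.124 in the others), and Abcg5 was lost with centring (0.0561). Nr5a2 (1420410_at), a hepatocyte nuclear receptor, was 11.61, 11.59, 11.49 and 11.57 in the controls and 10.74, 10.29, 10.42 and 10.36 after recovery. The fall of 1.11 on the log2 scale (standard error 0.09, adjusted p = 0.0028) stood against SDs of 0.05 in the controls and 0.20 after recovery. Of its 4 probe sets 3 fell, and Nr5a2 passed in every fit without 1 array.

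Of 18 genes of gluconeogenesis and glycolysis 4 were called (22.2%), all of them higher after recovery, and 13 had a difference above 0. Without recovery replicate 72 there were 3, all higher. Slc37a4, which carries glucose 6-phosphate into the endoplasmic reticulum for glucose release, was 11.81, 11.99, 11.55 and 11.35 in the controls and 12.98, 12.59, 12.48 and 12.57 after recovery (log2 difference 0.98, standard error 0.15, adjusted p = 0.014). Its SHS4m mean was higher still, at 13.20. Pcx, pyruvate carboxylase, which starts glucose synthesis from pyruvate, was 12.22, 12.26, 12.04 and 12.31 in the controls and 12.69, 12.64, 12.84 and 12.65 after recovery. Neither gene's groups overlapped, and the difference of Pcx was 0.50 (standard error 0.07, adjusted p = 0.0114). Khk, fructokinase, rose by 0.45 (adjusted p = 0.00789), and the glucose carrier Slc2a2 by 0.54 (adjusted p = 0.0221, and up to 0.0623 without control replicates 3 or 4 or recovery replicates 71 or 72). Slc37a4, Pcx and Khk passed in every fit without 1 array. G6pc and Pck1, which encode key enzymes of glucose release and synthesis and were named after their values were seen, differed by -0.68 and 0.56 without passing (adjusted p = 0.429 and 0.27).

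Gys2 (1424815_at), the glycogen synthase of liver, was 12.12, 12.44, 11.44 and 11.50 in the controls and 13.13, 13.29, 13.21 and 12.94 after recovery, a 2.4-fold rise (log2 1.26, standard error 0.21, adjusted p = 0.0209). Control replicates 1 and 2 were the nearer ones to the recovery arrays here too, and Gys2 is also on the clock output list. Gsk3b, a kinase that inhibits glycogen synthase, fell by 0.28 (log2, adjusted p = 0.0332), with 1 of its 6 probe sets called. These were the 2 called of 16 glycogen genes, and neither passed without recovery replicate 72 (adjusted p = 0.057 and 0.0837). Gys2 was also lost without control replicates 3 or 4 or recovery replicate 71 (up to 0.0577), and Gsk3b passed only without control replicate 4 or SHS4m replicates 66, 67 or 69 (up to 0.0893 in the others). Stbd1, which tethers glycogen to membranes and was chosen after its values were seen, rose by 1.11 (standard error 0.19, adjusted p = 0.0227, and up to 0.063 without control replicates 3 or 4 or recovery replicates 71 or 72). With each array centred on its median the call of Gsk3b was lost (adjusted p = 0.326).

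**Figure D3:**
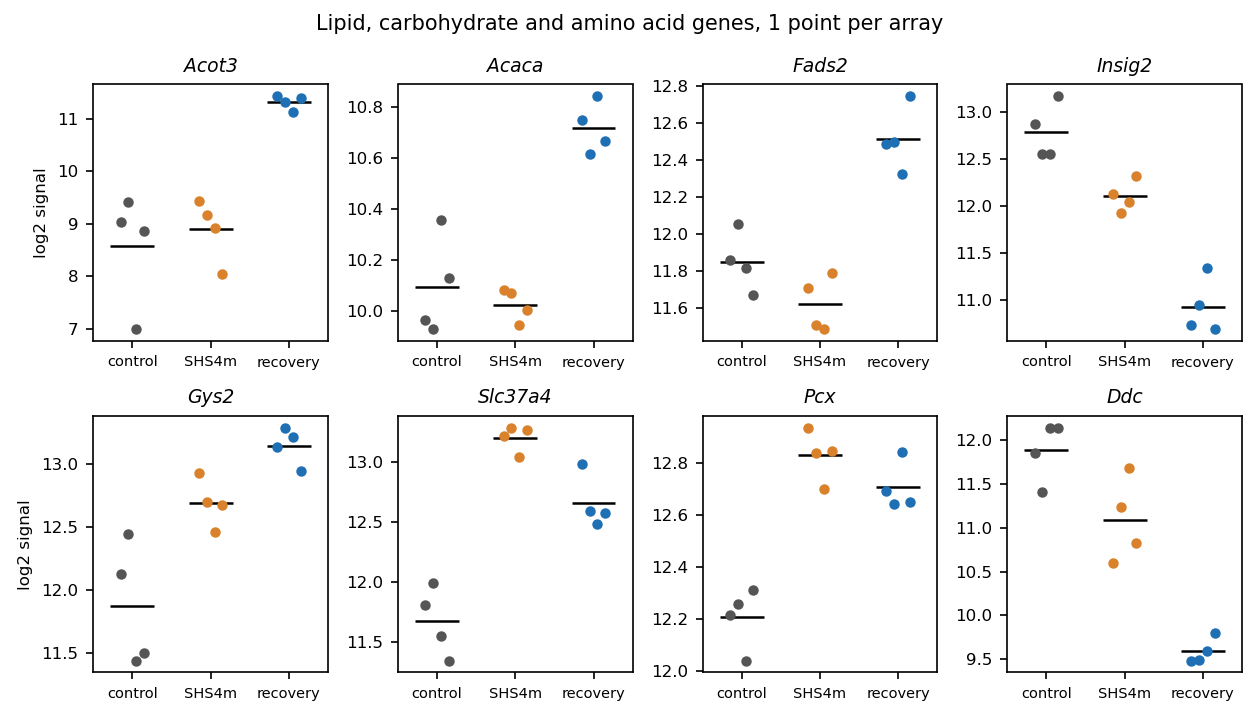
Log2 signal (y axis) of 8 genes of lipid, carbohydrate and amino acid metabolism on each array of control, SHS4m and recovery mice (x axis, 4 arrays per group), with bars at the group means. Acot3, Acaca and Fads2 are higher and Insig2 and Ddc lower on the recovery arrays than on all arrays of both other groups, while Slc37a4 and Pcx are raised in both exposed groups.

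Among genes of amino acid breakdown and the urea cycle, 4 of 32 were called (12.5%), and 21 had a difference below 0. Ddc (1426215_at), which decarboxylates aromatic amino acids to amines such as dopamine and serotonin, was 11.85, 11.41, 12.14 and 12.13 in the controls and 9.48, 9.49, 9.60 and 9.80 after recovery. The groups were far apart, with a log2 difference of -2.29 from controls (standard error 0.24, adjusted p = 0.00475) and -1.49 from SHS4m mice (adjusted p = 0.0139). Both subunits of the E1 part of branched-chain keto acid dehydrogenase, Bckdha (log2 0.48, adjusted p = 0.0305) and Bckdhb (log2 0.37, adjusted p = 0.032), and the alanine aminotransferase Gpt (log2 0.40, adjusted p = 0.0385) rose. Bckdha was lost without control replicates 3 or 4 or recovery replicates 71, 72 or 73 (up to 0.0768), Bckdhb without any 1 of the 4 controls or recovery replicates 70, 71 or 73 (up to 0.0853), and Gpt passed only without SHS4m replicate 66 or recovery replicate 71 (up to 0.105 in the others). With centring none of these 3 passed (adjusted p = 0.0606, 0.102 and 0.0661). The neutral amino acid carrier Slc1a4, chosen after its values were seen, fell by 1.36 on the log2 scale (adjusted p = 0.0235, and up to 0.0646 without control replicates 1, 3 or 4 or recovery replicates 71 or 72).

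Of the drug-metabolising genes that CAR and PXR control, 2 of 19 were called (10.5%), with a median log2 difference of 0.19. Cyp2b10 (1422257_s_at), the classic target of the receptor CAR, was 8.28, 8.29, 8.39 and 9.19 in the controls and 10.52, 10.15, 9.75 and 9.93 after recovery. All recovery arrays lay above all controls (log2 difference 1.55, standard error 0.22, adjusted p = 0.0114), and far below the SHS4m mean of 12.84 (log2 -2.75 against SHS4m, adjusted p = 0.00102). All 3 probe sets of Cyp2b10 rose, and the near-identical members of this family can share probes. The receptor PXR itself, Nr1i2, rose by 0.38 (log2, adjusted p = 0.0349) by its brightest probe set. That call passed only without control replicate 4, SHS4m replicates 67 or 68 or recovery replicate 73 (up to 0.0888 in the other fits without 1 array), and not with centring (0.0606). The other probe set of Nr1i2 rose by 0.46 (adjusted p = 0.025). It passed in 8 of the fits without 1 array and with centring (0.041). Of 22 NRF2 target genes 1 was called (4.5%, against 2.52% of all genes) by its brightest probe set, the thioredoxin reductase Txnrd1, at 10.96, 11.01, 10.65 and 10.82 in the controls and 11.43, 11.44, 11.38 and 11.25 after recovery (log2 difference 0.51, adjusted p = 0.0165). Another probe set of Txnrd1 was called in the opposite direction (log2 -1.35, adjusted p = 0.00688), so the gene has no single direction here.

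Of 16 glucocorticoid target genes, Fkbp5, a cochaperone of the glucocorticoid receptor, was called, and 14 had a difference above 0 (median log2 0.31). Its brightest probe set was 9.26, 9.54, 9.08 and 8.94 in the controls and 10.83, 10.37, 9.76 and 11 after recovery (log2 difference 1.29, standard error 0.26, adjusted p = 0.0406). Recovery replicate 72 was the lowest of its group but still above every control. The call passed in 1 of the 12 fits without 1 array, the one without recovery replicate 72 (adjusted p = 0.0183, and up to 0.107 in the others). Of 10 metallothioneins and zinc carriers 1 was called, the manganese exporter Slc30a10 (log2 -1.45, adjusted p = 0.04), both of whose probe sets fell. It passed only without control replicate 2 or SHS4m replicate 69 (up to 0.0978 in the others). Mt1 and Mt2, named after their values were seen, differed by 1.57 and 0.97 without passing (adjusted p = 0.281 and 0.455). Of 27 ER chaperone genes 1 was called (3.7%, against 2.52% of all genes), and 22 had a difference below 0. Herpud1, which serves the removal of misfolded proteins, was called higher (log2 0.95, adjusted p = 0.0482, passing only without control replicate 2 and up to 0.126 in the others, and 0.0631 with centring).

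Of 31 interferon-stimulated genes 3 were called (9.7%), all lower. Ifi47, an interferon-induced GTPase, was 10.86, 10.52, 10.80 and 10.61 in the controls and 9.61, 9.65, 10.04 and 10.16 after recovery, with no overlap (log2 difference -0.83, standard error 0.14, adjusted p = 0.0206). Leaving out control replicate 1 or 3 or recovery replicate 71 ended the call (adjusted p up to 0.0619). The GTPases Irgm1 (log2 -0.60, adjusted p = 0.0227) and Iigp1 (log2 -0.34, adjusted p = 0.0448) also fell, the latter by its brightest probe set. The other probe set of Iigp1, with a control mean of 13.82, differed by -0.17 without passing (adjusted p = 0.522), and its groups overlapped. Irgm1 was lost without control replicates 1, 3 or 4 or recovery replicates 71 or 72 (up to 0.065), and Iigp1 passed only without control replicate 3 (up to 0.0981 in the others). With centring neither passed (adjusted p = 0.066 and 0.309). Of 26 genes of NF-kB and cytokine signalling 2 were called (7.7%). Vcam1, an adhesion molecule for leukocytes, was 8.36, 8.68, 8.21 and 8.23 in the controls and 9.60, 9.03, 8.95 and 9.40 after recovery (log2 difference 0.87, standard error 0.17, adjusted p = 0.0317), against an SHS4m mean of 10.13, and centring put it at the edge (adjusted p = 0.051). Its 2 dimmer probe sets had differences of -0.10 and -1.22 and were not called. Il6ra, the receptor subunit for interleukin 6, rose by 1.08 (adjusted p = 0.0261, and up to 0.0767 without control replicates 1, 3 or 4 or recovery replicates 71 or 72), by 1 of its 2 probe sets. Of 27 collagen and matrix genes 2 were called (7.4%). Timp3, an inhibitor of matrix proteases, rose (log2 0.85, adjusted p = 0.0236) and Col4a1, a basement membrane collagen, fell (log2 -0.83, adjusted p = 0.0268). Leaving out control replicate 2 or any 1 of recovery replicates 70, 71 and 73 ended the call of Timp3 (up to 0.0605), and Col4a1 was lost without control replicates 1, 3 or 4 or recovery replicates 70, 71 or 72 (up to 0.0689), and another probe set of Timp3 of like brightness differed by -0.11. Of 36 complement and coagulation genes 2 were called (5.6%). C1ra (log2 0.37, adjusted p = 0.017) and F7 (log2 0.47, adjusted p = 0.0478) rose, and F7 passed only without control replicate 4 (up to 0.122 in the others). With centring neither passed (adjusted p = 0.0563 and 0.077).

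In the cell cycle list 4 of 38 genes were called. Cdk1, the kinase that drives mitosis, was 5.0, 5.10, 5.0 and 5.76 in the controls and 6.90, 7.02, 6.41 and 7.46 after recovery (log2 difference 1.73, standard error 0.28, adjusted p = 0.0171). The groups did not overlap, 2 controls were at the floor, and the call was lost without control replicate 1 or 3 (adjusted p up to 0.0525). Wee1 rose as above, and the replication helicase subunits Mcm5 (log2 -0.95, adjusted p = 0.024) and Mcm4 (log2 -0.56, adjusted p = 0.048) fell. Mcm5 was lost without control replicates 1, 3 or 4 or recovery replicates 71 or 72 (up to 0.0683), and Mcm4 passed only without SHS4m replicate 69 (up to 0.117 in the others). With centring neither passed (adjusted p = 0.0517 and 0.154). Of 31 proteasome subunits 3 were called, all lower, and 24 had a difference below 0. Psmc1, an ATPase of its regulatory particle, was 12.02, 11.89, 11.89 and 11.83 in the controls and 11.58, 11.43, 11.47 and 11.50 after recovery (log2 difference -0.41, standard error 0.05, adjusted p = 0.00688), and Psma4 and Psmd1 fell by 0.49 and 0.28 (adjusted p = 0.0189 and 0.032). Psma4 was lost without control replicates 1 or 3 (up to 0.0573) and Psmd1 without control replicates 1, 3 or 4, SHS4m replicate 66 or recovery replicates 70, 72 or 73 (up to 0.0832). With each array centred on its median none of these 3 passed (adjusted p = 0.13, 0.139 and 0.378). Of 18 cohesin and chromosome structure genes, read by their brightest probe sets, Ctcf (log2 -0.81, adjusted p = 0.016) and Pds5a (log2 -0.51, adjusted p = 0.0438) fell, and Pds5a passed only without recovery replicate 71 (up to 0.106 in the others) and not with centring (0.145). The ribosomal protein Rps19 (1 of 32, 3.1%) and the respiratory chain subunit Ndufa9 (1 of 40, 2.5%) rose by 0.25 and 0.23 on the log2 scale (adjusted p = 0.0272 and 0.0124), and neither passed with centring (adjusted p = 0.139 and 0.115). The shares called in these 2 lists are near the 2.52% of all genes. Rps19 was also lost without control replicates 1, 2 or 4 or recovery replicates 70, 71 or 73 (up to 0.0672).

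No gene was called by limma's adjusted p in 10 pathway lists. At an unadjusted p under 0.05, at which 16.1% of all genes passed, these held 2 of 11 AHR targets, 3 of 15 p53 targets, 5 of 14 cytosolic heat shock proteins and 6 of 30 genes of fatty acid uptake and lipoproteins. They further held 8 of 21 genes of insulin and leptin signalling, 3 of 18 of the growth hormone axis, 4 of 25 acute phase proteins, 3 of 22 immediate early genes, 16 of 51 splicing factors and 3 of 10 nuclear long noncoding RNAs. Over all members of these 10 lists the log2 differences ran from -1.41 (growth hormone axis) to 1.69 (fatty acid uptake and lipoproteins). The 2 brightest members of each list had log2 differences from -1.07 to 0.48. The furthest from 0 were the nuclear noncoding RNA Malat1 (-1.07, adjusted p = 0.155), the AP-1 subunit Jund (-0.70, adjusted p = 0.25), the insulin-like growth factor binding protein Igfbp2 (0.48, adjusted p = 0.261) and the p53 target Ccng1 (-0.35, adjusted p = 0.29). Between these lay the p53 target Trp53inp1 (-0.31), the receptor Ahr (0.30), the RNA-binding proteins Hnrnpa2b1 (-0.25) and Hnrnpk (0.00), the chaperones Hspe1 (-0.18) and Hspa8 (0.00) and the mRNA decay factor Zfp36 (-0.13). The lipid carriers Fabp1 and Apoa1 differed by -0.11 and -0.09, the adiponectin receptor Adipor2 by -0.09 and the AHR target Cyp1a2 by -0.08. The growth hormone receptor Ghr differed by -0.06, Igfbp4 by 0.02, the acute phase proteins Fgb and Hamp by 0.02 and 0.01 and the noncoding RNA Gas5 by 0.01. None of these passed the adjusted p. The other probe set of Adipor2 differed by -1.02, with an unadjusted p of 0.00373 and an adjusted p of 0.101 by limma. It met the study's cutoffs. Of 19 female-biased genes 1 was called, Acot3, and of 19 hepatocyte genes 2 were called, Nr1h4 higher and Nr5a2 lower. The transcription factor Onecut1, named after its values were seen, differed by -1.41 without passing (adjusted p = 0.358). Its other probe set differed by -1.825 and did not pass either (adjusted p = 0.271).

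Among the largest falls, those of Smc1a, Wbp11, Bbx, Clip1 and Syncrip were not seen in the brightest probe set of the gene. Smc1a, a core subunit of cohesin, was 8.97, 8.96, 9.02 and 8.93 in the controls and 7.16, 6.98, 6.41 and 5.09 after recovery by probe set 1417832_at. The control values were nearly equal and the recovery values spread over 2 log2 units, all of them below the controls (log2 difference -2.56, standard error 0.38, adjusted p = 0.0124). Another probe set of Smc1a differed by -1.06 (adjusted p = 0.0664) and the brightest by 0.30 (adjusted p = 0.189).

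Wbp11, a splicing-related protein, was 9.62, 9.57, 9.60 and 9.46 in the controls and 8.19, 7.81, 7.18 and 6.70 after recovery by 1430987_s_at (log2 difference -2.09, standard error 0.32, adjusted p = 0.0144), while its brightest probe set differed by 0.10. Bbx, an HMG-box protein, was 6.61, 7.15, 7.30 and 6.90 in the controls and at the floor on all 4 recovery arrays by 1422741_a_at. That makes its difference of -1.99 (adjusted p = 0.00874) a value limited by the floor, and its brightest probe set differed by -0.28. Syncrip, which binds RNA, fell by 1.74 and 1.49 in 2 probe sets and differed by -0.19 to 0.22 in 3. Clip1, which binds microtubule ends, fell by 1.75 and 1.39 in 2 probe sets and differed by -0.06 in the brightest. Both its calls were at the edge (adjusted p = 0.0452 and 0.0425), passing only without recovery replicate 70 (up to 0.115 and 0.109 in the others). Both were lost with centring (0.0594 and 0.0652). In contrast, Insig2, Clock, Nr5a2 and Chic1 fell in most or all of their probe sets.

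Thoc2l, related to a subunit of an mRNA export complex, fell by 1.84 (adjusted p = 0.0186) to the floor on 3 recovery arrays, the zinc finger gene Zfp800 by 1.76 (adjusted p = 0.0149) and Ube2u, of the ubiquitin-conjugating enzymes, by 1.72 (adjusted p = 0.0107). The call of Thoc2l ended when control replicate 3 or recovery replicate 71, 72 or 73 was left out (adjusted p up to 0.056).

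Across all named genes with several probe sets, 35.0% of probe sets were the brightest of their gene. The share was 57.3% (141 of 246) among those called higher and 32.9% (142 of 431) among those called lower. The other probe sets of the genes called lower had a median log2 difference of -0.10 (926 probe sets, 5 of them called higher), and those of the genes called higher 0.15 (399 probe sets, 5 of them called lower). A gene was called lower by 2 or more probe sets in 43 cases and higher in 34. The actin ratio, higher on all 4 recovery arrays, compares probe sets at the 2 ends of 1 transcript, and its part in these splits was not tested.

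**Figure D4:**
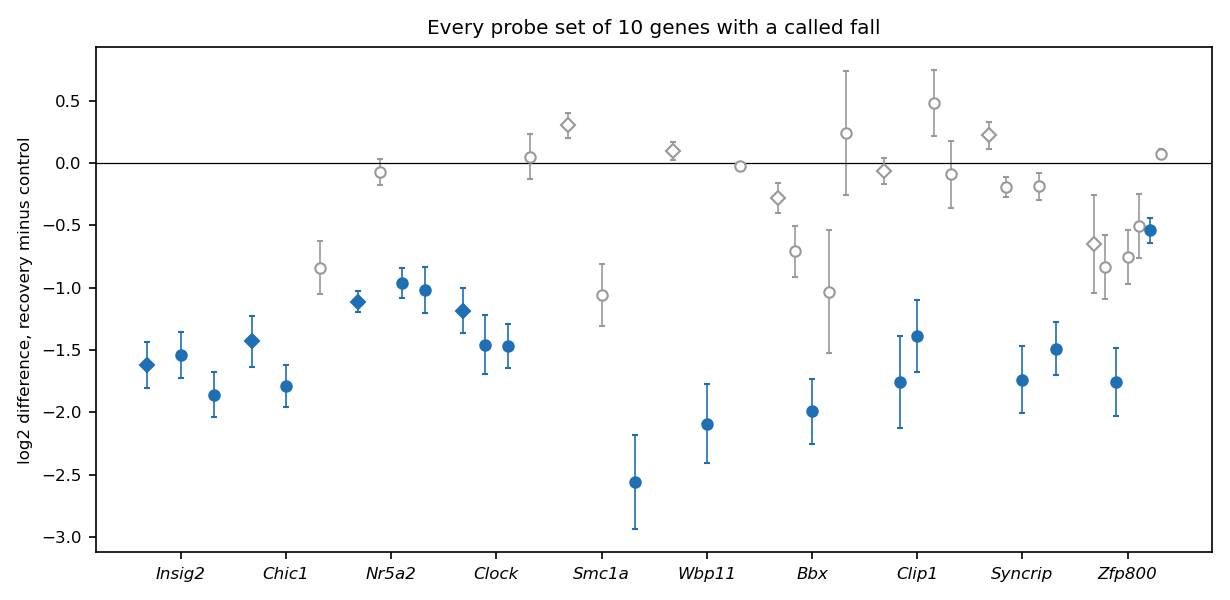
Log2 difference between recovery and control mice with its standard error (y axis) for every probe set of 10 genes with a called fall (x axis), where diamonds mark the brightest probe set of a gene, filled blue symbols the called ones and open grey symbols the others. All 3 probe sets of Insig2 fell, whereas the brightest ones of Smc1a, Wbp11, Bbx, Clip1 and Syncrip lie between -0.28 and 0.30.

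Rises from a low level included Kank1, a regulator of the actin skeleton (log2 1.91, adjusted p = 0.0037, at the floor on 3 control arrays by this probe set), whose brightest probe set differed by -0.40 without passing. Tspo2, a translocator protein, rose from the floor on all 4 control arrays to a mean of 6.61 ± 0.41 (SD, n = 4; adjusted p = 0.00527). Pcsk4, a proprotein convertase, rose by 1.93 (adjusted p = 0.0324) and the unnamed transcript A930033H14Rik by 1.76 (adjusted p = 0.034), and both calls were lost without control replicate 3 or 4, SHS4m replicates 66 to 69 or recovery replicates 70, 71 or 73 (adjusted p up to 0.0847 and 0.0943). That of Pcsk4 was lost without recovery replicate 72 as well (0.0805).

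To see which differences were already as large at the end of exposure, the recovery arrays were also compared with the SHS4m arrays in the same model. This comparison shares the recovery arrays with the one against controls, so the 2 are given side by side and their overlap is not taken as a result. In it 1142 of the 45037 probe sets (2.54%) were called. Of the 852 called against controls that name 1 gene, 688 were not called between recovery and SHS4m, which does not show that the levels were alike. Another 60 were higher and 76 lower than in both other groups, and 28 lay between control and SHS4m levels.

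The rises beyond the SHS4m level included Acot3, described above. Dclre1a, a nuclease for the repair of DNA crosslinks, was 9.26, 9.44, 9.15 and 8.71 in the controls and 11.45, 10.66, 10.55 and 10.74 after recovery. The SHS4m mean was 9.81, and the log2 difference was 1.71 from controls (standard error 0.21, adjusted p = 0.00688) and 1.04 from SHS4m (adjusted p = 0.0357). Serpina6, the carrier of corticosteroids in blood, was 12.59, 12.76, 12.32 and 12.30 in the controls and 13.51, 13.82, 13.68 and 13.55 after recovery, against an SHS4m mean of 12.90 (log2 1.15 from controls, adjusted p = 0.00523, and 0.74 from SHS4m, adjusted p = 0.0173). Adcy6, which makes cyclic AMP, was 8.27, 8.65, 8.22 and 8.34 in the controls and 9.68, 9.88, 9.68 and 9.49 after recovery, against 9.03 (log2 1.31 from controls, adjusted p = 0.00523, and 0.66 from SHS4m, adjusted p = 0.0453). In all 3 genes the recovery arrays lay wholly above the controls, and the call against controls held in every fit without 1 array.

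Others of this kind were the membrane protein Igsf8 (log2 1.14 from controls and 0.94 from SHS4m), Ccdc85b (1.13 and 0.69), Pgm2l1, related to phosphoglucomutases (1.13 and 1.07), and Hps1, which serves the making of lysosome-related organelles (1.49 and 1.02). Hps1 was read at the floor on all 4 controls, and its brightest probe set differed by -0.01. The brightest probe set of Pgm2l1 differed by 0.44 from controls without passing (adjusted p = 0.158). The kinase gene Dclk3, chosen after its values were seen, rose by 1.08 from controls (adjusted p = 0.0122). Pgm2l1 no longer passed when control replicate 1, 2 or 3 or recovery replicate 71, 72 or 73 was left out (adjusted p up to 0.0697).

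Among the falls beyond the SHS4m level, Clpx, which unfolds proteins for the mitochondrial ClpP protease and activates heme synthesis, was 12.07, 11.88, 12.27 and 12.57 in the controls and 10.47, 10.63, 10.39 and 10.69 after recovery. The SHS4m mean was 11.80, and the log2 difference was -1.65 from controls (standard error 0.18, adjusted p = 0.00523) and -1.26 from SHS4m (adjusted p = 0.00795). Chic1 fell by 1.79 from controls and 0.88 from SHS4m, C2cd2 by 1.47 and 0.83, and Baz2a, of a chromatin remodelling complex that silences ribosomal genes, by 1.5 and 1.52. Other probe sets of C2cd2 and Baz2a, among them the brightest, differed by -0.21 to 0.51, and the call of Baz2a passed only in the fits without recovery replicate 70 or 73 (adjusted p up to 0.103 in the others), and not with centring (0.0578). Ddc, Insig2, Wbp11 and Bbx, described above, belong here too.

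Genes still apart from controls but back toward them were led by Cyp2b10, at a log2 difference of 1.55 after recovery against 4.30 at the end of exposure. Vcam1 stood at 0.87 against 1.76, the glycolytic enzyme Aldoa at 0.86 against 1.51 (3 of its 5 probe sets called), Baiap2l1, which shapes membranes with actin, at 0.70 against 1.16, and a dimmer probe set of Fkbp5 at 0.64 against 1.5. The zinc finger gene Zfp352 stood at -0.63 against -1.22 in 1 of its 2 probe sets, and its call was lost with centring (adjusted p = 0.066). The call of Vcam1 was lost without control replicates 1, 3 or 4, SHS4m replicate 66 or recovery replicates 70, 71 or 73 (adjusted p up to 0.0881), and that of the dimmer Fkbp5 probe set in each fit without 1 array (up to 0.118).

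**Figure D5:**
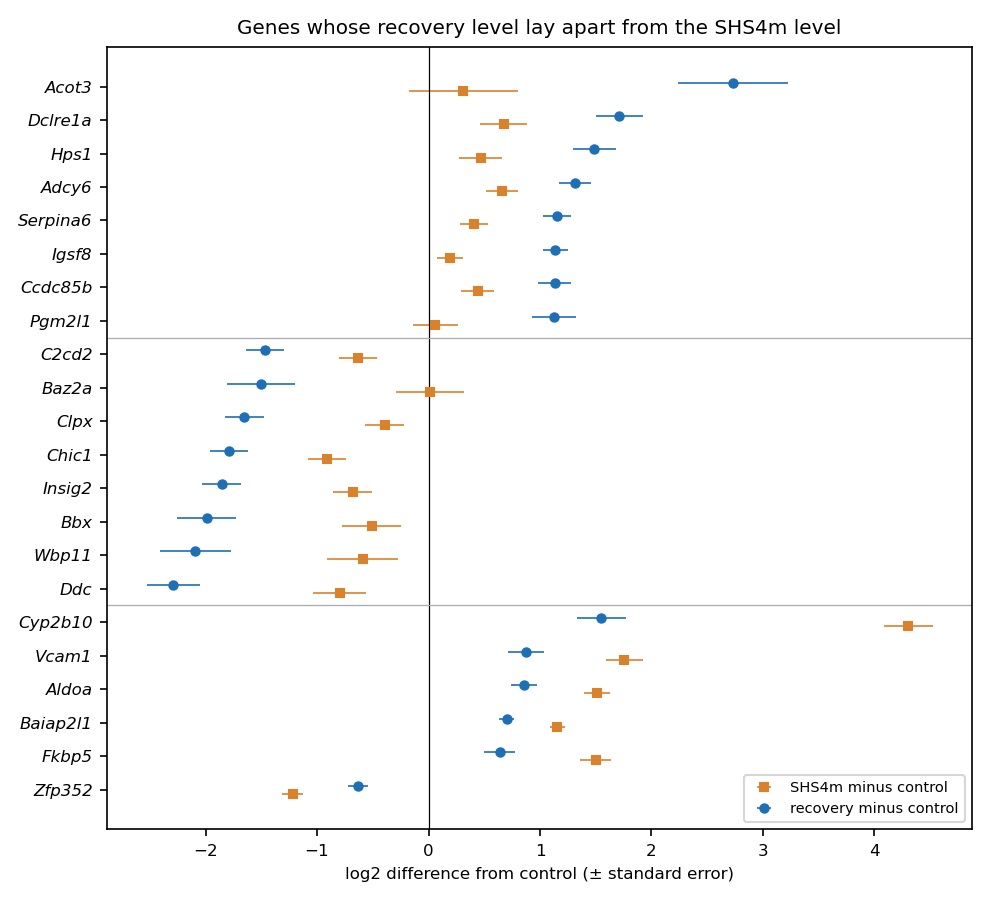
Log2 difference from control with its standard error (x axis) of 22 genes (y axis) in SHS4m mice (orange squares) and recovery mice (blue circles), for rises beyond the SHS4m level at the top, falls beyond it in the middle and changes lying back toward control at the bottom. Genes were chosen on these differences. Acot3 has the widest gap among the rises, and among the returning genes it is Cyp2b10, at 1.55 against 4.30.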

How the data were processed

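Total liver RNA of 12 mice was hybridised to Affymetrix arrays. The authors deposited linear signal intensities, made in Affymetrix Expression Console with the 2% trimmed mean of each array scaled to 500, and the sources used here do not give the summarisation step. Arrays have no read depth, and the number of arrays limits the precision. Here intensities below 32 were raised to 32 and log2 transformed, and 45037 probe sets (64 array controls left out) were fitted with limma 3.58.1 (R 4.3.3) as 1 model of 3 groups, with two-sided p adjusted over all probe sets. The test was checked on simulated data. Replicates are separate mice.

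The members and gene lists were chosen with earlier results of these data known. For lists, the brightest probe set of a gene stood for it. The text names the 12 largest rises and falls that were called, at least 2-fold and not overlapping, up to 4 called (or the 2 brightest) members of each list (by their range for lists of cell type markers), and the largest changes beyond (8 each way) or back from (6) the SHS4m level; others are said to have been chosen after their values were seen. Of the probe sets 34945 name 1 gene and 932 several. Other scalings, floors, filters and priors, array weights and leaving out each array were tried.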

Additional observations from a re-analysis of the deposited data

Results flagged for a closer look

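Among 71 sets of 4 arrays examined, of which chance gives about 1 in 20, 5 had 1 array far from the rest by Dixon's ratio of gap to range. The 3' to 5' ratio of actin stood apart on recovery replicate 72 (ratio 0.946), and it was lower on control replicate 4 than on the other controls (0.885). The median signal stood apart on control replicate 3 (0.908). Cyp2b10 by 1422257_s_at (0.879) and Cdk1 by 1448314_at (0.87) were higher in control replicate 4 than in the other controls, nearer the recovery level.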

How the results depend on the processing

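No paired analysis was possible because the groups share no replicate numbers. The 931 calls at the adjusted p became 475 with each array centred on its median, 365 with a floor at the 25th percentile of each array, 567 with only probe sets above the floor on at least 4 arrays and 258 when only the 8 arrays of control and recovery mice were fitted, which leaves fewer arrays to estimate the spread. They ranged from 438 (without control replicate 3) to 817 (without recovery replicate 70) when 1 array was left out, and with recovery replicate 71, 72 or 73 left out the counts were 475, 510 and 562, against 492 and 485 with control replicate 1 or 4 left out. The count of 619 at the study's cutoffs became 1059 with the floor at the 25th percentile, 1329 with a floor of 16 and 364 with a floor of 64, since a lower floor lets dim probe sets reach 2-fold, and ranged from 602 to 746 when 1 array was left out. Under quantile normalization, array weights and the trended, robust prior both counts stayed within 1.5 times. The cause was not tested for centring or for the 25th percentile floor. No named probe set that was called turned its direction under any of these alternatives. Leaving out 1 array could not turn a direction, since the groups did not overlap in any called probe set. Fitting only the 8 arrays could not either, since it leaves the differences unchanged. Of the 93 named probe sets that were called, 17 passed under every alternative, 8 were lost with quantile normalization, 27 with centring, 66 with only the 8 arrays and 37 without recovery replicate 72. With 4 arrays per group and 29.9% to 33.5% of the probe sets of an array at the floor, changes in dim transcripts were not well measured.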
